A study of Mus musculus with 8 samples.

Results

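The myosin light chain kinases are the products of 4 mouse genes, Mylk, Mylk2, Mylk3 and Mylk4. Their members were found by gene symbol: every alternative polyadenylation site (APS) that the deposited table assigns to one of these symbols was taken. This gave 61 of the 56483 APSs in the table, 5 of Mylk, 15 of Mylk2 and 41 of Mylk4, and 3 of the 15378 genes. No APS of Mylk3 is listed. Mylk4 was chosen by its KO and WT read counts, since the study names APSs of this gene as differing between KO and WT mice, so these values are given for Mylk4 as a description and carry no test.

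Myosin light chain kinases are protein kinases switched on by calcium-loaded calmodulin. Their substrate is the regulatory light chain of myosin, which sits on the neck of the myosin head. In smooth muscle this phosphorylation starts contraction, whereas in striated muscle contraction is started by calcium on troponin and light chain phosphorylation raises the force at a given calcium level. Mylk encodes the smooth muscle and non-muscle kinase, Mylk2 the skeletal muscle kinase, Mylk3 the cardiac kinase, and Mylk4 a further family member of striated muscle whose role is less well known.

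The study asked how loss of either catalytic α subunit of AMP-activated protein kinase (AMPK, an energy-sensing kinase) changes the use of polyadenylation sites in gastrocnemius, a mixed calf muscle of mostly fast fibres. The 3′ ends of polyadenylated RNA fragments were read by WTTS-seq, a form of whole transcriptome termini site sequencing, in 8 male mice with 1 library per mouse. The AMPKα1 model held 2 AMPKα1 KO mice (AMPKα1-/-, about 6 weeks of age) and 2 WT mice, and the AMPKα2 model held 2 AMPKα2 KO mice (AMPKα2-/-, about 8 weeks of age) and 2 WT mice. Neither deletion is limited to muscle fibres. The labels give C57BL/6 for all mice, while the methods name 129S2/SvPas for the AMPKα1 KO mice. Model, age, strain and library set thus cannot be told apart, and levels of the models are set side by side only. The strain of the AMPKα1 WT mice is not clear from these sources. Within AMPKα1, a difference in strain between KO and WT could therefore not be told apart from genotype.

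The libraries held between 2311242 and 3549156 counted reads. Reads without a gene made up 1.88% to 2.85% of an AMPKα1 library and 15.3% to 17.9% of an AMPKα2 library. The targeted genes gave no check of the labels. Prkaa1, which encodes AMPKα1, had 0 and 82 reads in AMPKα1 KO against 15 and 0 in their WT. Prkaa2, which encodes AMPKα2, had 40 and 71 reads in AMPKα2 KO against 87 and 62 in their WT. These 3′ ends may lie outside the deleted exons, and KO and WT below mean the libraries labelled so. The muscle label was borne out by its markers: 4 of 5 genes common to skeletal muscle and 9 of 9 fast fibre genes had reads in every library, while Myog was not listed. Of 6 cardiac genes, Nppa, Nppb and Myl7, which define cardiac muscle, were not listed, and Myh6, Sln and Ryr2 had reads in every library.

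The bases around the leading APSs are shown first, since they mark where each transcript was cut and whether a genomic run of A bases follows, at which an oligo(dT) primer can also anneal. They were read from the GENCODE M21 transcripts (GRCm38), 5′ to 3′ on the strand of the gene, as the last 30 bases of the annotated transcript, or up to the APS where this lies inside it. Capitals mark the polyadenylation signal AATAAA.
Mylk4 (chr13:32700834-32700863, minus strand, 3′ UTR): aaattattcAATAAAgaagccttggctaac
Mylk (chr16:35002391-35002420, plus strand, 3′ UTR): cacaatttttaAATAAAggataccacagtg
Mylk2 (chr2:152923021-152923050, plus strand, 3′ UTR): ggcagcctccttccctttgcacgtgcacac
The window of Mylk2 holds neither AATAAA nor ATTAAA. Of the 31 readable windows of the kinases, 2 held AATAAA and 1 held ATTAAA. Over all APSs with readable transcript bases, AATAAA occurred in 35.2% and ATTAAA in 11.0% of 23325 such windows, searched on the strand of the gene only.

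The next windows are the 30 bases directly after 3 APSs that lie inside exons. Capitals mark A-rich stretches, defined as 7 consecutive As or 8 As within 10 bases, and bases outside such a stretch are in lower case.
Mylk last exon (chr16:35000597-35000626, plus strand): AAAAAAAAAAAAAAAATCAAAAAAACCAAA
Mylk4 exon 3 of Mylk4-204 (chr13:32728692-32728721, minus strand): gAAAGAAAAGAttaccaaacttaacaagaa
Mylk4 exon 4 of Mylk4-204 (chr13:32726954-32726983, minus strand): aaaagagcagaatagatgtagtgagaagag
The APS before the second window lies in exon 3 of Mylk4-204 and in exon 3 of Mylk4-203, a transcript with a retained intron. The bases of that window were read from Mylk4-203. The window of Mylk holds 26 As, and that after the APS in exon 3 of Mylk4-204 holds 18. The window after the APS in exon 4 holds 15 As in no such stretch. The 30 bases up to each of these Mylk4 APSs hold neither AATAAA nor ATTAAA. An A-rich stretch occurred in 23.4% of the 14207 readable windows of all APSs, and in 2 of the 25 readable windows of the kinases.

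Among the kinases, Mylk4 gave by far the most reads in every library. Over the 8 libraries it had 21084 reads, Mylk2 had 2881 and Mylk had 547. These are reads of 3′ ends and were not divided by transcript length. Per library, Mylk4 had between 7.19 and 13.0 times the reads of Mylk2 in AMPKα1 and between 2.61 and 5.11 times in AMPKα2. Counted only at the annotated 3′ end of each gene, the ratio of Mylk4 to Mylk2 was 4.46 to 12.2 in AMPKα1 and 1.17 to 3.59 in AMPKα2. The order Mylk4, Mylk2, Mylk was thus the same in all 8 libraries by reads per gene.

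The level of Mylk4, in reads scaled to a common library size within each model (CPM), was 1679 and 858 CPM in AMPKα1 KO against 1286 and 1290.4 CPM in their WT. The WT values lay between those of the KO libraries. In AMPKα2, the level of Mylk4 was 867 and 807 CPM in KO and 309 and 378 CPM in WT. Both KO libraries lay above both WT libraries. The level of Mylk2, the skeletal muscle kinase, was 129 and 119 CPM in AMPKα1 KO, 168 and 101 CPM in their WT, 170 and 174 CPM in AMPKα2 KO and 119 and 107 CPM in their WT. Here too the groups overlapped in AMPKα1 and did not in AMPKα2, where both KO libraries lay above both WT libraries for 18.8% of all genes tested. The level of Mylk was 11.7 and 43.1 CPM in AMPKα1 KO and 32.7 and 51.3 CPM in their WT, against 9.52 and 11.5 CPM in AMPKα2 KO and 14.02 and 9.93 CPM in their WT. The Mylk groups overlapped in both models.

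**Figure D1:**
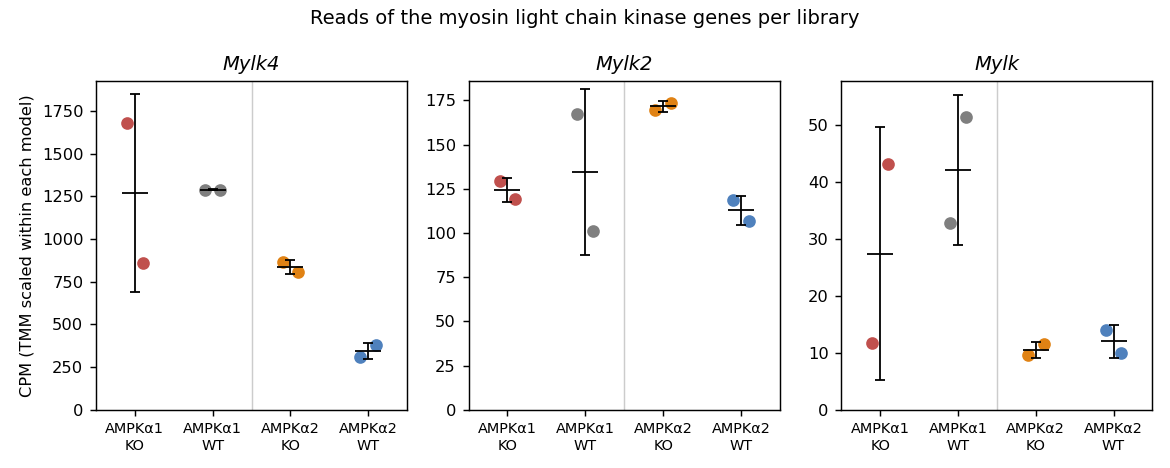
Level of each kinase gene per library (y axis, CPM, TMM scaled within each model), by group (x axis). Points are libraries, the horizontal bar is the group mean and the error bar is the SD over 2 libraries. The AMPKα2 KO libraries lie above the WT libraries for Mylk4 and Mylk2, and all other pairs of groups overlap.

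The test of KO against WT was edgeR's quasi-likelihood fit, run in each model over all genes with at least 16 reads. Mylk4 had a mean of 837 ± 42.4 CPM in AMPKα2 KO and 344 ± 48.3 CPM in WT (SD, n = 2), 2.43-fold higher in KO with 2.04 to 2.91 at 1 standard error (log2 fold change 1.28, standard error 0.26). In AMPKα1 the means were 1269 ± 581 CPM in KO and 1288 ± 3.06 CPM in WT, so that the log2 fold change was −0.02 (standard error 0.42). The spread between the AMPKα1 KO libraries thus exceeded the difference of their group mean from WT. Leaving out single libraries moved the AMPKα1 log2 fold change from −0.59 to 0.38, with −0.59 reached without KO replicate 1. In AMPKα2 the same step gave 1.14 to 1.44. The log2 difference between the models' KO effects was 1.28 (standard error 0.52) for Mylk4, and 0.74 without AMPKα1 KO replicate 2 against 1.88 without AMPKα1 KO replicate 1.

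Mylk2 did not pass the test in either model. Its mean was 172 ± 3.03 CPM in AMPKα2 KO and 113 ± 8.32 CPM in WT (SD, n = 2). The log2 fold change was 0.60 (standard error 0.23, edgeR adjusted p = 0.491). In AMPKα1 the means were 124 ± 6.96 CPM in KO and 134 ± 46.9 CPM in WT. The log2 fold change there was −0.11 (standard error 0.45, edgeR adjusted p = 0.999), and it turned to 0.18 with library totals in place of TMM factors and to 0.30 without WT replicate 1. For Mylk the log2 fold change was −0.62 (standard error 0.82, edgeR adjusted p = 0.991) in AMPKα1 and −0.20 (standard error 0.38, edgeR adjusted p = 0.931) in AMPKα2. It turned to 0.028 without AMPKα1 KO replicate 1 and to 0.080 without AMPKα2 WT replicate 1. The interaction of genotype and model was not passed by Mylk2 (log2 difference 0.70, edgeR adjusted p = 0.839) or by Mylk (0.43, edgeR adjusted p = 1.00).

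At an adjusted p under 0.1, edgeR called 0 of 13941 genes in AMPKα1 (0%), with 587 at an unadjusted p under 0.05 and 124 called by DESeq2. In AMPKα2 it called 72 of 10552 genes (0.682%), of which 39 were higher in KO (0.37%), and 36 without KO replicate 1 or 38 without WT replicate 1. Of the 3 kinases, 1 was among the 72, namely Mylk4, for which nothing is read from the count. Mylk4 was not called in 6 of 11 alternatives, namely with library totals, with a replicate block, with all 8 libraries fitted together, and without KO replicate 1, WT replicate 1 or WT replicate 2 of AMPKα2. The interaction called 10 of 15378 genes (0.065%), none of them a kinase.

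The 41 APSs of Mylk4 were then described one by one, by their place in the gene (GRCm38 chromosome 13, 32700834 to 32783954, minus strand). The main transcript, Mylk4-201, has 12 exons. The shorter protein-coding Mylk4-204 has 9, of which exons 3 and 4 lie within intron 2 of Mylk4-201. By location, 1 APS lay at the annotated 3′ end (within 50 bases of it), 13 elsewhere in the last exon, 13 had a cluster of reads that overlapped another exon, 13 lay in introns and 1 lay outside the gene. Of the 41, 9 reached a total of 100 reads, and the other 32 held 1362 of the 21084 reads.

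The annotated end, with the AATAAA shown above, had 5174 and 1905 reads in AMPKα1 KO and 1474 and 3621 in their WT. It had 309 and 544 reads in AMPKα2 KO and 275 and 281 in their WT. It was the strongest APS in each AMPKα1 library and held 61.3% to 87.7% of the Mylk4 reads there, against 22.6% to 35.2% in AMPKα2. Within AMPKα1 its share was 87.7% in KO replicate 1 and 81.3% in WT replicate 2, and 61.3% in KO replicate 2 and 62.5% in WT replicate 1 (95% Wilson intervals of at most 2 percentage points to either side, which cover counting error only). For this share, each KO library thus lay nearer to a WT library than to the other KO library.

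A pair of APSs in intron 1 of Mylk4-201 came next in AMPKα1. The one 54.8 kb upstream of the annotated end had 261 and 576 reads in AMPKα1 KO and 243 and 275 in their WT. The one 34.1 kb upstream had 175 and 513 reads in AMPKα1 KO and 451 and 229 in their WT. Together they held 7.39%, 35.0%, 29.4% and 11.3% of the Mylk4 reads in KO replicates 1 and 2 and WT replicates 1 and 2. Their share was high where that of the annotated end was low. Both are shares of the same Mylk4 reads and make up most of them in AMPKα1, so this order is largely fixed by arithmetic. In AMPKα2 the pair held 3.81% to 7.0%.

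The coding exons 3 and 4 of Mylk4-204 showed the reverse picture. The APS in exon 4 had 293 and 452 reads in AMPKα2 KO, 219 and 135 in their WT, 0 and 0 in AMPKα1 KO and 8 and 0 in their WT. The APS in exon 3 had 203 and 392 reads in AMPKα2 KO, 187 and 121 in their WT, 0 and 0 in AMPKα1 KO and 47 and 53 in their WT. Together these exons held 32.0% to 41.3% of the Mylk4 reads in each AMPKα2 library and at most 2.33% in AMPKα1. With the 0 reads of AMPKα1 KO set to 3 reads over the group and the WT reads taken as counted, the exon 3 APS was 45.0-fold lower in KO. This value leaves out the counting error of the WT reads and the spread between libraries. Reads also carry no molecular identifiers, so it is no lower limit on a KO effect. The fitted log2 fold change was −9.09 with a standard error of 2.68, and the APS did not pass the test (edgeR adjusted p = 0.543). With 0 reads in both KO libraries, the size of this fold change cannot be estimated from the reads. Another APS, between exon 2 and exon 3 of Mylk4-204, had 0 and 0 reads in AMPKα1 KO against 8 and 16 in WT, and 27 and 57 in AMPKα2 KO against 25 and 21 in WT.

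The remaining Mylk4 APSs with at least 100 reads lay at the gene's ends. The APS in coding exon 1 had no read in AMPKα1, 75 and 96 reads in AMPKα2 KO and 66 and 33 in their WT. An APS in the last exon, 2.96 kb before the annotated end, also had no read in AMPKα1, with 51 and 22 reads in AMPKα2 KO and 24 and 11 in their WT. Both of these APSs were listed through AMPKα2 reads alone. An APS upstream of the start of Mylk4-201, within an intron of the noncoding Mylk4-202, had 191 and 20 reads in AMPKα1 KO, 47 and 169 in their WT, and between 3 and 14 in AMPKα2 libraries. This last one again ran with KO replicate 1 and WT replicate 2 of AMPKα1.

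**Figure D2:**
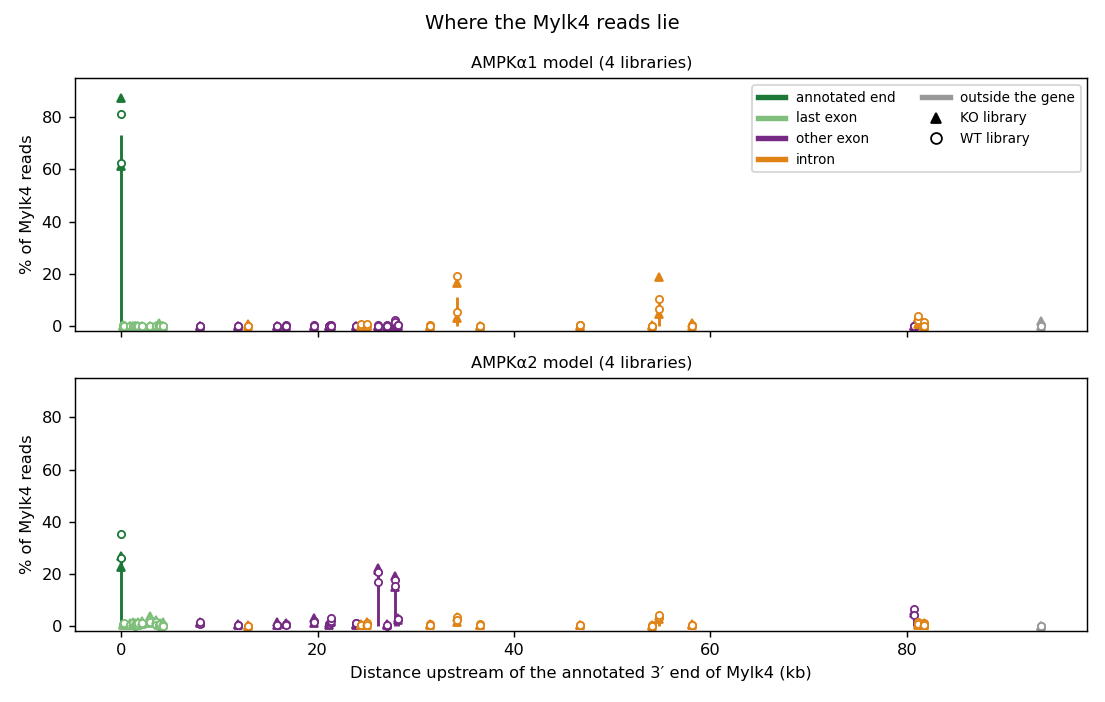
Share of the Mylk4 reads of a library at each of its 41 APSs (y axis, %) against distance upstream of the annotated 3′ end (x axis, kb), in AMPKα1 (top) and AMPKα2 (bottom). Triangles are KO libraries, open circles WT libraries and vertical lines the mean of the 4 libraries, coloured by location. AMPKα1 reads gather at 0 kb and at 2 intron 1 sites, and AMPKα2 reads at 0 kb and at exons 3 and 4 of Mylk4-204.

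In AMPKα2, the KO and WT libraries of Mylk4 were also set side by side by location. At the annotated end the level was 196 and 215 CPM in KO and 80.3 and 133 CPM in WT, a ratio of means of 1.93. Over the 13 APSs at other exons it was 478 and 439 CPM in KO and 167 and 179 CPM in WT, a ratio of 2.65. Over the 13 APSs of the last exon before its end it was 137 and 56.5 CPM in KO and 24.2 and 30.7 CPM in WT, a ratio of 3.52, and over introns it was 55.2 and 96.4 CPM in KO and 37.7 and 35.5 CPM in WT, a ratio of 2.07. All 4 locations thus had both KO libraries above both WT libraries. They are parts of the same gene in the same libraries, and Mylk4 was taken up for this contrast, so this is a description only.

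Of the 41 APSs, 35 had at least 16 reads in AMPKα2, and 33 of the 35 had a positive log2 fold change (50.8% of all APSs tested), with a median of 1.38 against 0.01 over all 23218 APSs tested. Both KO libraries lay above both WT libraries at 26 of the 35, where this held for 23.6% of all APSs tested. These APSs are parts of 1 gene in the same 4 libraries, and the contrast is the one for which Mylk4 was taken up, so the counts are given as a description. The edgeR test called 13 of 23218 APSs in AMPKα2 (0.056%) and 2 of 44024 in AMPKα1 (0.00454%), none of them of a kinase. The log2 fold changes in AMPKα2 were 1.38 (standard error 0.31) at exon 4 and 1.22 (standard error 0.33) at exon 3 of Mylk4-204, and 0.82 (standard error 0.36) at the annotated end.

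**Figure D3:**
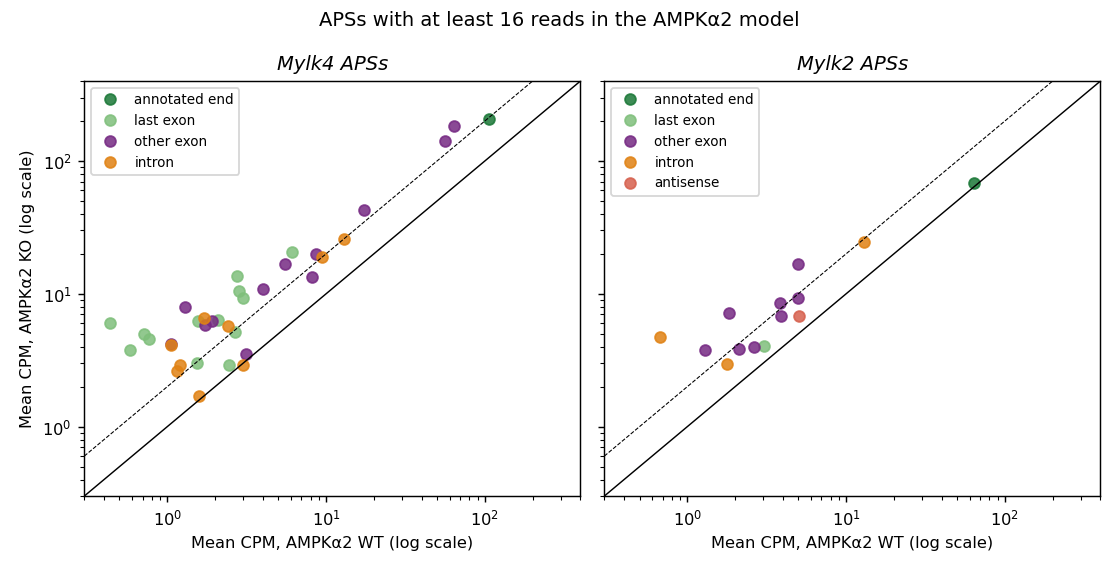
Mean level of each APS in AMPKα2 KO (y axis, CPM, log scale) against AMPKα2 WT (x axis, CPM, log scale), for the 35 Mylk4 APSs (left) and the 14 Mylk2 APSs (right) with at least 16 reads in the model, coloured by location. The solid line marks equal levels and the dashed line a doubling in KO. The annotated end of Mylk2 lies near the solid line, while the other Mylk2 APSs and nearly all Mylk4 APSs lie above it.

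Mylk2 (GRCm38 chromosome 2, 152911352 to 152923068, plus strand) has 1 annotated transcript of 12 exons. In AMPKα1 nearly all its reads fell at the annotated end, which had 423 and 427 reads in KO against 296 and 349 in WT. This was 93.2% to 100% of its reads. In AMPKα2 the annotated end had 86 and 207 reads in KO against 235 and 124 in WT, or 32.2% and 47.0% of the Mylk2 reads in KO and 57.9% and 54.9% in WT. Its level was 54.6 and 81.8 CPM in KO and 68.6 and 58.6 CPM in WT, with overlapping groups (log2 fold change −0.02, standard error 0.36, edgeR adjusted p = 0.994).

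The higher Mylk2 values of AMPKα2 KO lay away from the annotated end. Over all protein coding genes, the shares of the annotated end and of other exons differed in the same direction, as given below. Whether Mylk2 differs from those genes was not tested. The 8 APSs at other exons, from exon 1 to intron 9, had no read in any AMPKα1 library (0 of 307 reads in the shallowest, with a Wilson limit of 1.24%). In AMPKα2 each of them had reads in every library, and together they had 66.7 and 53.7 CPM in KO and 25.1 and 26.0 CPM in WT, a ratio of means of 2.35. The 3 intronic APSs together had 38.7 and 26.1 CPM in KO and 19.6 and 11.3 CPM in WT, a ratio of 2.10. The strongest of these, in intron 5, had 43 and 56 reads in AMPKα2 KO against 55 and 21 in WT, and 0, 5, 11 and 0 in AMPKα1. It did not pass the test (log2 fold change 0.77, standard error 0.42, edgeR adjusted p = 0.693). Of 2 antisense APSs, 1 had 31 reads in AMPKα1 KO replicate 1 and none elsewhere, and the other had 7 to 20 reads in each AMPKα2 library and none in AMPKα1.

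Reads at these internal places were not particular to the kinases. Over all 44202 APSs of protein coding genes that could be placed, the annotated end held 52.3% to 62.3% of the reads of an AMPKα1 library and 20.9% to 29.2% of an AMPKα2 library. Other exons held 9.03% to 11.1% in AMPKα1 and 16.2% to 22.4% in AMPKα2. Within AMPKα2, over all these genes, the annotated end held 20.9% and 26.7% in KO against 29.2% and 27.5% in WT. Other exons held 21.1% and 22.4% in KO against 18.3% and 16.2% in WT. For Mylk4, other exons held at most 3.22% in AMPKα1 and 47.3% to 55.2% in AMPKα2. The strongest APS held 77.0% of the Mylk4 reads in AMPKα1 and 26.8% in AMPKα2, 97.0% and 48.7% for Mylk2, and, as a median over the 286 genes with at least 10 APSs and 500 reads in each model, 55.8% and 43.6%. For both kinases this share thus differed more between the models than for the median gene. No test was made of this, since the models differ in more than genotype. The clusters of reads without any AMPKα1 read had a median width of 101 bases for 17 Mylk4 APSs, against 58 bases for the 23 with reads in both models. For Mylk2 the order was the other way round, with 148 bases for 12 APSs against 345 bases for 2.

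**Figure D4:**
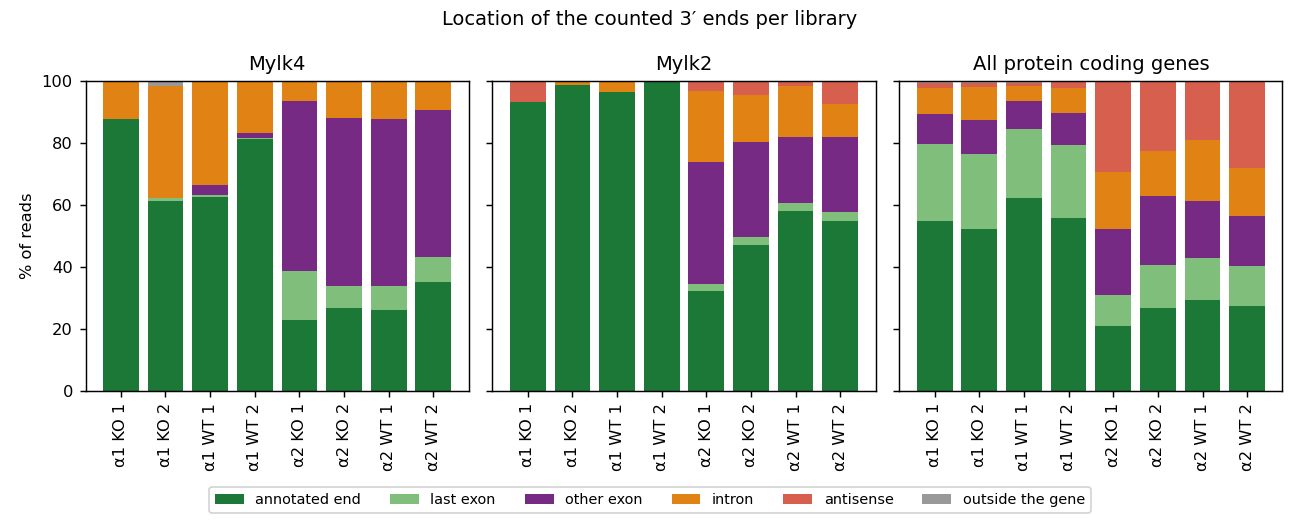
Share of reads (y axis, %) by location of the APS in each of the 8 libraries (x axis), for Mylk4, Mylk2 and all placed APSs of protein coding genes. The annotated end (dark green) holds over 60% of the Mylk4 reads in every AMPKα1 library and under 36% in every AMPKα2 library, where other exons (purple) lead. Over all genes the annotated end is lower in AMPKα2 too, and antisense reads (red) make up 1.15% to 1.85% of AMPKα1 and 18.7% to 29.1% of AMPKα2 libraries.

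Mylk (GRCm38 chromosome 16, 34745210 to 35002420, plus strand), the smooth muscle kinase, rested on few reads. Its annotated end had 0 and 63 reads in AMPKα1 KO, 44 and 84 in their WT, 9 and 11 in AMPKα2 KO and 21 and 5 in their WT. The APS 1.82 kb before that end, directly ahead of the A-rich window shown above, had 41 and 49 reads in AMPKα1 KO, 16 and 62 in their WT, 6 and 16 in AMPKα2 KO and 25 and 13 in their WT. In AMPKα1 KO replicate 1, all 41 Mylk reads lay at this APS. The 3 other APSs lay in introns 17, 21 and 24 and had 19 to 34 reads each. No APS of Mylk passed the test in either model.

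Markers of muscle types were summed beside the kinases. The summed level of 7 of 7 smooth muscle genes (Acta2, Myh11, Tagln, Cnn1, Smtn, Lmod1 and Synpo2) was 255 to 323 CPM in AMPKα1 KO, 464 to 677 CPM in their WT, 352 to 403 CPM in AMPKα2 KO and 223 to 296 CPM in their WT. Slow fibre genes, all 7 of 7 with reads, summed to 2306 to 5294 CPM in AMPKα1 KO, 1668 to 2065 CPM in their WT, 2313 to 2352 CPM in AMPKα2 KO and 720.4 to 1517 CPM in their WT. Fast fibre genes summed to 72747 to 77043 CPM in AMPKα1 KO, 104439 to 152936 CPM in their WT, 55861 to 68875 CPM in AMPKα2 KO and 52435 to 54747 CPM in their WT. In AMPKα2, both KO libraries lay above both WT libraries in all 3 sums, but 2 of the sums overlapped once 1 gene was left out, a step added after seeing the data. Among the 7 smooth muscle genes this held for Synpo2 alone, and the other 6 summed to 97.8 and 103 CPM in KO against 102 and 85.6 CPM in WT, which overlap. It held for 4 of 9 fast fibre genes, and without Myh4 their sum overlapped, at 38474 and 28087 CPM in KO against 29692 and 30266 CPM in WT. It held for 6 of 7 slow fibre genes, and without Myh7 their sum was 1293 and 1375 CPM in KO against 469 and 979.9 CPM in WT. Over all genes tested in AMPKα2 it held for 18.8%. In AMPKα1 the slow fibre sums of KO lay above WT, but by gene this held for Myh7 alone. Without Myh7 they overlapped, at 2898 and 890 CPM in KO against 1400 and 1010 CPM in WT. The fast fibre and smooth muscle sums of AMPKα1 KO stayed below WT without Myh4 or Synpo2. By gene, 8 of 9 fast fibre and 2 of 7 smooth muscle genes lay below. The share of all genes with such an order in AMPKα1 was not counted. Genes common to skeletal muscle summed to 24062 to 28441 CPM in AMPKα1 KO, 30234 to 43228 CPM in their WT, 24448 to 33211 CPM in AMPKα2 KO and 19748 to 21283 CPM in their WT. Their part in the differences of Mylk4 and Mylk2 was not tested, and in bulk muscle fewer cells of a type and less RNA per cell cannot be told apart.

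Sums of other cell types overlapped between KO and WT in AMPKα2, except that of cardiac genes. There, 4 of 4 endothelial genes summed to 45.4 to 50.2 CPM in KO and 43.5 to 47.7 CPM in WT, 4 of 4 macrophage genes to 30.4 to 38.1 CPM and 31.0 to 33.1 CPM, and 3 of 4 adipocyte genes to 17.8 to 58.4 CPM and 27.4 to 38.9 CPM. Blood genes (3 of 3) summed to 862 to 1377 CPM in KO and 672 to 1071 CPM in WT, and the 3 of 6 cardiac genes with an APS (Myh6, Sln and Ryr2) to 19.7 to 38.3 CPM and 11.98 to 18.9 CPM. The defining cardiac genes Nppa and Nppb were among the 3 not listed.

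The genes that act with these kinases were taken from 7 lists of 44 genes, of which 39 had an APS. None passed the test, among 38 tested in AMPKα1 and 36 in AMPKα2. In AMPKα1 this says nothing of the lists, since 0 of all 13941 genes tested passed there. In AMPKα2, 0.682% of all genes tested passed. In AMPKα1, 21 of the 38 had a positive log2 fold change, with a median of 0.14 against −0.03 over all genes tested. In AMPKα2 it was 23 of the 36, with a median of 0.12 against −0.01. The share of all genes with a positive value was not counted, so nothing is read from these counts.

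The regulatory light chains are the substrates of the kinases. Mylpf, the fast skeletal form, had 19156 and 18193 reads in AMPKα1 KO and 25608 and 35257 in their WT (log2 fold change −1.21, standard error 0.32, edgeR adjusted p = 0.763), and 5854 and 4075 in AMPKα2 KO and 8107 and 6038 in their WT (0.03, standard error 0.39, edgeR adjusted p = 0.991). Myl2, the slow and cardiac form, had 542 and 826 reads in AMPKα2 KO against 350 and 487 in WT (log2 fold change 1.02, standard error 0.36, edgeR adjusted p = 0.439). Of 8 regulatory light chain genes, 6 were tested in each model and 0 passed. Of 5 essential light chain genes, whose products bind beside the regulatory chain, 4 were tested in each model and 0 passed, with Myl1 at −0.52 and −0.06 and Myl3 at 0.60 and 0.42 on the log2 scale in AMPKα1 and AMPKα2.

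Of the genes upstream and opposed to the kinases, none passed either. Calm3, a gene of the calcium sensor calmodulin, had log2 fold changes of 0.28 in AMPKα1 and 0.60 in AMPKα2. The 8 tested genes of myosin phosphatase and its inhibitors, which undo or protect the phosphorylation, had medians of 0.42 and 0.24, with Ppp1r12b at −0.05 and 0.58 and Ppp1r12a at 0.47 and −0.21. Other kinases that phosphorylate the light chain (Rock1, Rock2, the Dapk genes and Cit) had medians of 0.32 over 6 and 0.06 over 5, with Rock1 at −0.73 and 0.76 and Rock2 at −0.33 and 0.02. Other calmodulin-dependent kinases had medians of 0.13 over 8 and −0.22 over 7, with Camk1d at 1.20 and −0.24 and Camk2a at 0.11 and −0.19.

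Giant muscle proteins such as titin carry kinase domains related to those of the light chain kinases. No gene of this list passed the test in either model. Ttn, the titin gene, had 54497 and 44044 reads in KO against 43932 and 22465 in WT (log2 fold change 1.15, standard error 0.41, edgeR adjusted p = 0.423). Both KO libraries lay above both WT libraries on the CPM scale. In AMPKα1 its log2 fold change was −0.02 (standard error 0.32, edgeR adjusted p = 0.999).

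**Figure D5:**
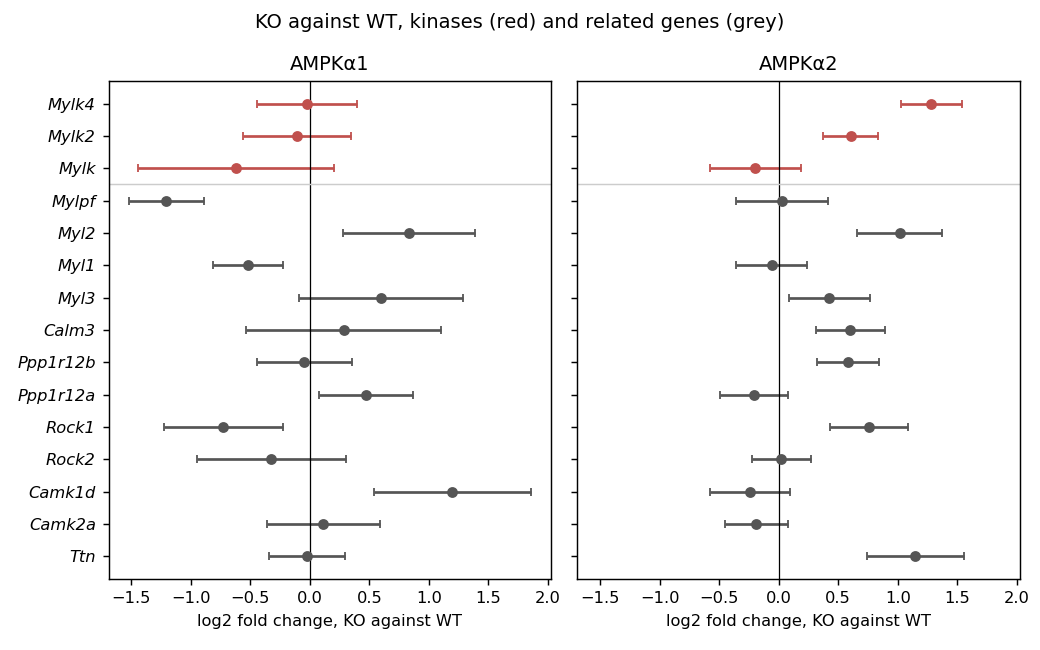
Log2 fold change of KO against WT (x axis) with its standard error (bars) for the 3 kinases (red) and leading genes of the 7 lists (grey), in AMPKα1 (left) and AMPKα2 (right). In AMPKα2, Mylk4 lies at 1.28, beside Ttn at 1.15 and Myl2 at 1.02.

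The genes whose levels ran most like each kinase were sought over the 8 libraries, after removing each model's mean, among 6973 genes with a mean of at least 10 CPM. For Mylk4 these were Creb5 (Pearson r = 0.97), Frmd4a (0.97) and Hipk3 (0.93). Creb5, a transcription factor gene, had 38.7 and 20.7 CPM in AMPKα1 KO, 24.6 and 26.9 CPM in their WT, 31.1 and 26.9 CPM in AMPKα2 KO and 12.3 and 12.3 CPM in their WT. For Mylk2 they were Shisa4 (0.97), Brf1 (0.94) and Dusp10 (0.93), and for Mylk they were Cdpf1 (0.99), Exosc4 (0.98) and Sidt2 (0.98). Between the kinases themselves r was 0.68 for Mylk4 and Mylk2, −0.44 for Mylk4 and Mylk and −0.25 for Mylk2 and Mylk. The points share their libraries and scaling, and with so many genes compared over 8 libraries these values are descriptions only.

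Mylk3, the cardiac kinase gene (GRCm38 chromosome 8, 85324303 to 85386345, minus strand), has 5 annotated transcripts. An APS enters the table only from a total of 16 reads, so its absence from the list sets no level for any one library.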

How the data were processed

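The authors fragmented total RNA of gastrocnemius muscle, enriched polyadenylated fragments and sequenced WTTS-seq libraries of 2 KO and 2 WT male mice per model on an Ion PGM. Per the methods, reads were filtered with the FASTX Toolkit 0.0.13.1, mapped with TMAP 3.4.1 (build GRCm38.p5 in the submitters' processing notes), clustered into APSs and assigned to genes with Cuffcompare 2.2.1. The deposited values are raw counts of reads per APS and library, not normalized, for APSs with at least 16 reads in all. Reads carry no molecular identifiers, so intervals cover counting error only.

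Counts of all APSs with a gene were summed per gene, which includes antisense APSs. Symbols shared by several gene entries were taken from the entry with most reads. CPM used TMM factors within each model. KO and WT were compared with edgeR 4.0.16 (R 4.3.3; TMM, robust quasi-likelihood fit, at least 16 reads over the fitted libraries, Benjamini-Hochberg adjusted p under 0.1), and the interaction over all 8 libraries. Standard errors were derived from the F statistic. With 2 mice a group, an exact permutation test cannot go below p = 0.333. Alternatives were DESeq2 1.42.0, other scalings and filters, a replicate block, all 8 libraries fitted together, the gene strand only and single libraries left out. The fits were tested on simulated data with 200 genes or APSs changed 4-fold. Of the 200 genes, 19 were recovered in AMPKα1 and 119 in AMPKα2, and of the 200 APSs, 0 and 22. A feature that did not pass, above all in AMPKα1, may thus still differ. APSs were placed on GENCODE M21 transcripts (GRCm38), whose bases were read for windows within 1 transcript. Intronic bases were not read, since no genome was used here.

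The text names the 4 kinases, their leading APSs, the 3 genes most like each kinase, any called gene of the 7 lists or otherwise the 2 with most reads, and Prkaa1 and Prkaa2. Some genes of the lists are not reported here. The kinases and lists were chosen with earlier results of these data known.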

Additional observations from a re-analysis of the deposited data

Results flagged for a closer look

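At the APS in exon 3 of Mylk4-204 the KO and WT libraries did not overlap in either model, and their order was opposite. In AMPKα1 both KO libraries had 0 reads and the WT libraries had 47 and 53, while in AMPKα2 both KO libraries lay above both WT libraries in CPM, with a log2 fold change of 1.22. The APS between exons 2 and 3 of Mylk4-204 had the same order, with 0 reads in both AMPKα1 KO libraries, 8 and 16 in WT, and a log2 fold change of 1.09 in AMPKα2. Neither APS passed edgeR's test in either model. The difference between the models was not tested, and the models also differ in age and library set, and by the methods in strain. Within AMPKα1, KO and WT may differ in strain too. Mylk4 was taken up because the study names its APSs as differing between KO and WT, so this order is a description only. In AMPKα2, both KO libraries lay above both WT libraries at 23.6% of all APSs tested, and the share with the opposite order in AMPKα1 was not counted. Groups of 2 libraries are too small to look for single outlying samples.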

How the results depend on the processing

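The number of calls depended strongly on the settings. For AMPKα1, AMPKα2 and the interaction in turn, 0, 72 and 10 genes were called, and 2 and 13 APSs in AMPKα1 and AMPKα2. DESeq2 called 124 genes in AMPKα1, 180 for the interaction, and 218 and 96 APSs in AMPKα1 and AMPKα2. Library totals without TMM factors, a setting added after seeing the data, called 185 genes in AMPKα2, 2 for the interaction, and 49 and 45 APSs. The mean log2 TMM factor of KO minus that of WT, which this setting drops, was 0.26 in AMPKα1 and −0.21 in AMPKα2. A minimum of 1 read gave 397 genes in AMPKα2, and 4 and 557 APSs. Fitting all 8 libraries together gave 97 and 7 genes, and 1564 and 2 APSs. Counting only APSs on the gene strand gave 24 for the interaction. The cause of these changes was not tested.

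KO and WT are different mice, and same-numbered libraries deviated together with a correlation of 0.03 in AMPKα1 and −0.004 in AMPKα2, so the replicate numbers share only a name. With a replicate block, the interaction called 2 genes and AMPKα2 520 APSs.

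Leaving out 1 library gave 0 genes in AMPKα1 each time, 36 to 100 in AMPKα2 (36 without KO replicate 1, 38 without WT replicate 1), and 0 to 550 for the interaction (550 without AMPKα1 KO replicate 1, 455 without AMPKα1 KO replicate 2, 6 without AMPKα1 WT replicate 1, and 0 without AMPKα1 WT replicate 2 or any AMPKα2 library). It gave 0 to 170 APSs in AMPKα1 (170 without WT replicate 2, 0 without any other) and 0 to 76 in AMPKα2 (5 without KO replicate 2, 76 without WT replicate 1, 0 without WT replicate 2). The lone library of a group was then assumed to vary like the others.

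The log2 fold change of Mylk4 in AMPKα2 stayed between 1.10 (library totals) and 1.44 over 11 alternatives, and that of Mylk2 between 0.42 and 0.67. Signs turned for Mylk4 in AMPKα1 in 6 of 11 alternatives (−0.59 to 0.38 against −0.02), for Mylk2 in AMPKα1 with library totals (0.18) and over single libraries (−0.40 to 0.30), for Mylk in AMPKα1 (−1.85 to 0.028) and AMPKα2 (−0.41 to 0.080), and for the interaction of Mylk (−0.21 to 1.504). With only APSs of at least 50 reads, shares at the annotated end in AMPKα2 rose for Mylk2 to between 42.0% and 66.2%.

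Precision was limited by the spread between libraries of a group. The biological coefficient of variation fitted by edgeR was 104% over genes in AMPKα1 and 26.2% in AMPKα2. With 1 library per mouse, spread between mice and spread from library preparation cannot be told apart.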

Other observations

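Among the regulatory light chains, Myl9, the smooth muscle and non-muscle form, stood apart in AMPKα1 and was chosen after its values were seen. It had 725 and 687 reads in AMPKα1 KO and 18 and 60 in their WT, a log2 fold change of 3.84 (standard error 0.54) that did not pass edgeR's test over all genes (adjusted p = 0.763). In AMPKα2 it had 67 and 108 reads in KO against 132 and 88 in WT, a log2 fold change of 0.09. Of the 7 smooth muscle genes in AMPKα1, on the CPM scale, 0 had both KO libraries above both WT libraries, 2 (Acta2 and Synpo2) had both below, and 5 overlapped. The shares of all genes with such an order in AMPKα1 were not counted, so nothing is read from these counts. The difference of these genes from Myl9 was not tested.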
